A study of Mus musculus with 18 samples.

Results

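Ribosome-bound RNA was compared with total RNA in the livers of mice fed a high-fat diet with lycopene (HFD+LYC), in 6 of the series' 18 libraries: the 3 titled HFD+LYC with the suffix RNC and the 3 with the suffix mRNA. The RNC and mRNA libraries that carry the same animal code were taken as 2 libraries of 1 liver, giving 3 livers (1, 2 and 3). All mice of the study were male, wild type C57BL/6. The 3 HFD+LYC mice ate the high-fat diet with added lycopene, a red carotenoid of tomato, for 8 weeks from 8 weeks of age and were sampled at 16 weeks. Used only for comparison, 3 control mice ate normal chow and 3 HFD mice ate the high-fat diet alone over the same ages, with the same 2 libraries from each liver. The sources used here do not give the lycopene dose or the diet's composition. No liver had lycopene on chow, so lycopene was measured only on top of the high-fat diet. The tissue was whole liver, so in these bulk libraries fewer cells of a type and less RNA per cell cannot be told apart.

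A ribosome-nascent chain complex (RNC) is an mRNA with the ribosomes and growing peptides it carries. The submitters lysed the liver in buffer with cycloheximide, which stalls elongating ribosomes, pelleted the complexes through a sucrose cushion and sequenced poly(A) RNA from the pellet. The ratio of a gene's RNC to its mRNA signal is commonly read as the share of its transcripts on ribosomes, relative to other genes. In liver, mRNAs of secreted and membrane proteins are translated on ribosomes docked at the endoplasmic reticulum (ER), whereas nuclear RNAs are not translated. Anything else that pellets with ribosomes is counted too.

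The 3 HFD+LYC RNC libraries stood apart from the rest of the series. They held 11300925, 4533729 and 8944808 reads in livers 1, 2 and 3, but reads from only 8940, 9567 and 10037 genes, against 13324 to 14450 genes in the 6 control and HFD RNC libraries and 13791 to 14876 in the HFD+LYC mRNA libraries (5806647 to 9136396 reads). Only 70 to 112 genes had exactly 1 read in them, against 614 to 861 in the other RNC libraries, and their 10 most abundant genes took 31.9% to 47.3% of reads. The HFD+LYC mRNA library of liver 2 also had few genes with 1 read (189, against 652 to 798 in the other 8 mRNA libraries). The values below were measured in these libraries, and the part of library preparation in them was not tested. Markers of hepatocytes, the liver's parenchymal cells, were present in both kinds of library, with all 20 tested and a summed level of 21462 to 64396 CPM in mRNA and 140640 to 568050 CPM in RNC.

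Levels within the HFD+LYC livers are CPM (reads relative to each library's total, with TMM factors over the 6 libraries, so they have no fixed sum), listed in the order of livers 1, 2 and 3, and a log2 fold change is RNC over mRNA. A gene was called at a Benjamini-Hochberg adjusted p under 0.05 in edgeR's quasi-likelihood test with the liver as a block (n = 3). Of 11589 genes tested, 746 (6.44%) were called higher in RNC and 886 (7.65%) lower, 14.1% in all. These are the background for the counts below. All 3 RNC libraries lay above all 3 mRNA libraries in 1707 genes (14.7%) and below them in 3605 (31.1%). The median gene stood at -0.78 on the log2 scale, so a list is set beside that value rather than beside 0. With library sums in place of TMM scaling the median gene stood at -2.24, and 88 genes were called higher and 3079 lower, so the share of calls that were higher moved from 45.7% to 2.78%. A list's median under library sums follows in parentheses where its sign turned. Leaving out liver 1, 2 or 3 left 45, 374 and 319 genes called higher and 140, 449 and 464 called lower, and where a named gene's call was lost in this way its adjusted p without that liver follows. Whether the 3 livers were processed apart is not stated, so the p-values measure the spread between these samples.

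mRNAs of proteins that hepatocytes export were enriched in RNC. Of 63 tested secreted plasma protein genes, 55 were called higher and 0 lower, with a median log2 fold change of 2.74 against -0.78 for all genes, and in 57 every RNC library lay above every mRNA library. With library sums 26 were called higher and 1 lower, with a median of 1.26 against -2.24 for all genes. Without the liver block 37 were called higher and 0 lower. Albumin mRNA, Alb (chromosome 5, 90460870 to 90476602), stood at 14315, 5769.7 and 32576 CPM in mRNA and 256610, 65148 and 141890 CPM in RNC. It was 9.65-fold higher in RNC (log2 fold change 3.27, SE 0.93, adjusted p = 0.0222, or 0.131 and 0.474 without livers 1 and 2). Apoa1 (chromosome 9, 46228630 to 46230469), the main protein of high-density lipoprotein, stood at 7192, 3939.6 and 9763 CPM in mRNA and 165750, 39900 and 69143 CPM in RNC (log2 fold change 3.56, SE 0.87, adjusted p = 0.00956, or 0.0841 and 0.292 without livers 1 and 2). The 3 RNC values of both genes lay above all mRNA values, and in both the mRNA level was lowest in liver 2.

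Ttr, the thyroid hormone carrier transthyretin, stood at 2014, 585 and 4996 CPM in mRNA and 39643, 12259 and 27031 CPM in RNC (log2 fold change 3.73, SE 0.80, adjusted p = 0.00378, or 0.0736 and 0.182 without livers 1 and 2). Serpina1a, an α1-antitrypsin gene that shares reads with its close copies, stood at 1673, 723 and 2701 CPM in mRNA and 79886, 10049 and 30801 CPM in RNC (log2 fold change 4.28, SE 0.84, adjusted p = 0.00212, or 0.0508 and 0.116 without livers 1 and 2). In both the RNC libraries lay above the mRNA libraries, and so they did in the 3 members with the smallest p. Apom, an apolipoprotein, stood at 9.6, 4.67 and 9.47 CPM in mRNA and 169, 68 and 89.8 CPM in RNC (adjusted p = 1.31e-04). Igfbp2, which binds insulin-like growth factors, stood at 81.1, 78.8 and 140.0 CPM in mRNA and 3145, 1012 and 1374 CPM in RNC (adjusted p = 3.22e-04). The acute phase gene Saa1, which has close copies, stood at 17, 4.76 and 47.5 CPM in mRNA and 302, 72.4 and 167 CPM in RNC (adjusted p = 6.58e-04, or 0.0702 without liver 1). The list's count depended on the livers used, with 4, 12 and 41 genes called higher without liver 1, 2 and 3. In the same livers Ces2e, a carboxylesterase (chromosome 8, 104926260 to 104934672), was at 13.5, 4.09 and 44.1 CPM in mRNA and 889, 250.2 and 556 CPM in RNC (log2 fold change 5.23, SE 0.62, adjusted p = 5.01e-05). The major urinary protein genes Mup13 and Mup15 were also among the 12 largest called rises, but they belong to a family of near-identical genes and their separate counts are uncertain.

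Some genes of the secretory pathway's machinery were called in the same direction. Of 36 genes of ER chaperones and the unfolded protein response, 18 were called higher and 1 lower (median 1.52), and of 30 lysosome and autophagy genes 16 were called higher and 0 lower (median 1.83). With library sums the ER list had 3 called higher and 3 lower (median 0.04), and the lysosome list 5 and 2. Calr, the ER chaperone calreticulin (chromosome 8, 84842088 to 84846931), stood at 192, 119.7 and 275 CPM in mRNA and 4864, 1074 and 2349 CPM in RNC (log2 fold change 3.63, SE 0.61, adjusted p = 7.13e-04). Ssr2, a subunit of the translocon-associated complex, stood at 22.9, 22.8 and 33.8 CPM in mRNA and 438, 154 and 218 CPM in RNC (adjusted p = 4.13e-04, or 0.0509 without liver 1). Sdf2l1, an ER chaperone component, stood at 11.8, 4.17 and 7.58 CPM in mRNA and 141, 35.8 and 43.9 CPM in RNC (adjusted p = 6.59e-04, or 0.07 without liver 1). RNC lay above mRNA without overlap in these 3 genes. Hspa5, the ER chaperone BiP, was not called, at 175, 270.4 and 216 CPM in mRNA and 788, 259 and 246 CPM in RNC. Its RNC and mRNA values overlapped, and its log2 fold change of 0.74 (adjusted p = 0.381) turned to -0.73 with library sums. Leaving out liver 1, 2 or 3, the ER list had 1, 14 and 13 members called higher and the lysosome list 2, 13 and 10.

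The lysosomal proteases led their list. Ctsd, cathepsin D (chromosome 7, 142375910 to 142387827), stood at 69, 43.9 and 113 CPM in mRNA and 1923, 479.8 and 1089.7 CPM in RNC (log2 fold change 3.83, SE 0.56, adjusted p = 2.77e-04). Ctsh, cathepsin H, stood at 37.7, 41.8 and 42.9 CPM in mRNA and 672, 189.9 and 500.4 CPM in RNC (adjusted p = 4.97e-04, or 0.0577 without liver 1). Ctsb, cathepsin B, stood at 158, 94 and 241 CPM in mRNA and 2704, 1099.9 and 1914 CPM in RNC (adjusted p = 5.06e-04). All RNC values of these genes exceeded all mRNA values. Selenoproteins, which carry selenocysteine inserted at a recoded stop codon, had 8 of 20 members called higher and 0 lower (median 1.24, -0.25 with library sums). Gpx1, a glutathione peroxidase, stood at 215, 104 and 524 CPM in mRNA and 1772, 1199.9 and 1122 CPM in RNC (adjusted p = 0.00683, or 0.147 and 0.11 without livers 1 and 2). Gpx4, which reduces lipid peroxides, stood at 221, 208 and 384 CPM in mRNA and 956, 1597 and 1189.7 CPM in RNC (adjusted p = 0.00764, or 0.108, 0.0798 and 0.0513 without livers 1, 2 and 3). Selenof, an ER protein, stood at 28.8, 9.85 and 55.6 CPM in mRNA and 201, 116 and 115 CPM in RNC (adjusted p = 0.00394, or 0.139 without liver 1). The selenoprotein list had 0, 1 and 4 called higher without liver 1, 2 and 3.

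**Figure D1:**
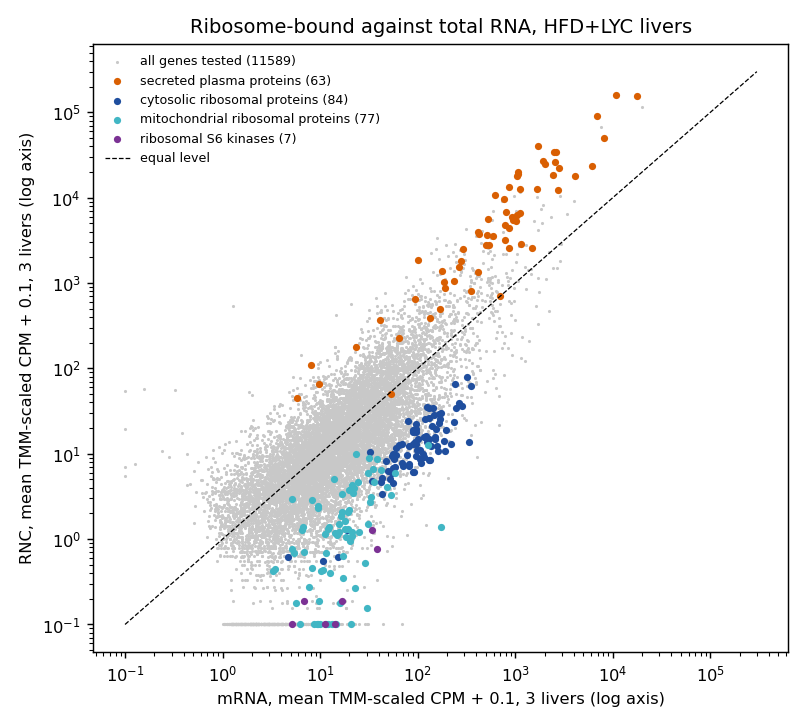
Mean RNC level against mean mRNA level of each tested gene over the 3 HFD+LYC livers (TMM-scaled CPM plus 0.1, log axes), with 4 lists in colour. The 63 secreted protein genes lie mostly above the line of equal level and all 84 cytosolic and 77 mitochondrial ribosomal protein genes below it, and the genes along the bottom edge had no RNC read.

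Ribosomal protein genes stood at the other end. All 84 tested genes of the cytosolic ribosome had every RNC library below every mRNA library, against 31.1% of all genes, and 76 were called lower and 0 higher (7.65% of all genes were called lower). Their median log2 fold change was -3.14 (range -5.98 to -1.65), or -4.63 with library sums. Rps18 (chromosome 17, 33951998 to 33955665), a protein of the small subunit, stood at 393, 179 and 427 CPM in mRNA and 12, 17.6 and 11.6 CPM in RNC (log2 fold change -4.54, SE 0.55, adjusted p = 6.37e-05). Rpl21, of the large subunit, stood at 211, 137 and 204 CPM in mRNA and 18.9, 9.59 and 13.1 CPM in RNC (log2 fold change -3.76, SE 0.48, adjusted p = 9.76e-05). Rpl10, which joins the large subunit late, stood at 186, 113 and 271 CPM in mRNA and 10.9, 13.2 and 8.03 CPM in RNC (log2 fold change -4.08, SE 0.53, adjusted p = 1.28e-04). In these 3 genes every RNC value was below the lowest mRNA value. Rps6, the small-subunit protein phosphorylated by S6 kinases, stood at 139, 71.4 and 184 CPM in mRNA and 9.58, 25.1 and 9.22 CPM in RNC (adjusted p = 0.00174, or 0.0927 without liver 1). Rpl3, near the peptidyl transferase centre, stood at 54, 62.2 and 57.3 CPM in mRNA and 7.99, 10.7 and 2.22 CPM in RNC (adjusted p = 0.00119, or 0.0503 without liver 1).

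Called lower were 19, 76 and 36 members without liver 1, 2 and 3, and 46 by limma-voom. Many of these genes have processed pseudogenes, which can take reads from them. A per-liver log2 ratio was also taken on the scale of all 18 libraries, over the 83 members with at least 10 CPM in control and HFD mRNA. Its median was -3.31, -1.74 and -3.92 in the HFD+LYC livers and 0.42 to 2.02 in the 6 others, so the HFD+LYC livers did not overlap them and liver 2 was the least low. Their longest transcripts had a median length of 714 bases.

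mRNAs of ribosomal proteins are known for a 5′ terminal oligopyrimidine (TOP) start, a cytosine followed by pyrimidines through which mTOR signalling controls their translation. The starts of 4 genes that differ in their RNC level are shown. In Rps18, Rps6 and Eif3f the annotated start opens such a run. In Mrps33 it is a guanine, with pyrimidines from the next base. Sequences are RefSeq, GRCm38.p6, transcript strand, with 15 bases before the annotated start in lower case and the first 15 transcribed bases in capitals.
Rps18, chr17:33955651-33955680, minus strand: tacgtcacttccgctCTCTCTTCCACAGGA
Rps6, chr4:86857353-86857382, minus strand: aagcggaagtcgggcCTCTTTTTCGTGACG
Eif3f, chr7:108934400-108934429, plus strand: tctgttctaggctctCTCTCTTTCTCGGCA
Mrps33, chr6:39810922-39810951, minus strand: ttccgcctctctcctGCTCTCTGGAGCTGG

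The search was for 3 words. The first was CTTTT. Another was CTTTC. The last was CTTCC. One of them lay in this 30-base window, read on the transcript strand, in 43.5% of the 62 cytosolic ribosomal protein genes found in the promoter table (19.4% on the opposite strand). The share was 19.1% of 68 mitochondrial ribosomal protein genes (17.6% on the opposite strand), 14.5% of 9053 tested genes with an entry (13.8%) and 13% of all 27025 promoters (13%). Matches of these words can share 1 base at their ends, and a match describes the letters only. Among named genes whose starts are not shown, Rpl10 and Tpt1 held none of the words and Eef1a1 held one. Of 15 translation genes other than ribosomal proteins that are known for TOP starts, a list put together after the values were seen, 9 had an entry and 5 of them held one of the words (55.6%), against 3 on the opposite strand (33.3%). In RNC these 15 had a median log2 fold change of 0.61 (-0.87 with library sums), with 1 called higher, 0 lower and 0 with all RNC below all mRNA libraries. Eif3f, a subunit of initiation factor 3 whose start is shown above, stood at 19, 12.1 and 30.4 CPM in mRNA and 65.8, 71.4 and 76.8 CPM in RNC (log2 fold change 1.89, SE 0.48, adjusted p = 0.0119, or 0.131, 0.0978 and 0.0824 without livers 1, 2 and 3). Tpt1, a translationally controlled tumour protein, stood at 524, 273 and 921 CPM in mRNA and 1220.4, 1323 and 1017 CPM in RNC (adjusted p = 0.163). The elongation factor Eef1a1 stood at 795, 571 and 1309 CPM in mRNA and 1079, 1396 and 1008 CPM in RNC (adjusted p = 0.619). The log2 fold changes of both, 1.21 and 0.45, turned to -0.32 and -1.06 with library sums. The log2 fold changes of ribosomal protein genes, -5.98 to -1.65, did not overlap those of these 15 genes, -1.02 to 1.89. Since the 15 were picked with values in view, a difference between the lists was not tested.

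Genes of the mitochondrial ribosome, which translates the respiratory subunits encoded in mitochondria, were also low in RNC. Of 77 tested Mrpl and Mrps genes, 37 were called lower and 0 higher, 73 had every RNC library below every mRNA library, and the median was -4.48. In 10 of them no RNC library had a read, against 729 of all 11589 genes tested. Mrps33 (chromosome 6, 39801804 to 39810936) had 183, 126 and 429 reads in mRNA and 0, 0 and 0 reads in RNC, against 389 to 1024 reads in the 6 other RNC libraries. Set against the floor of 3 reads over the 3 libraries, it was at least 95.3-fold lower in RNC (adjusted p = 0.00133, or 0.0911 without liver 3). Mrpl4 had 412, 319 and 330 reads in mRNA and 0, 0 and 1 reads in RNC, a ratio of mRNA to RNC of 418 (95% interval 74.8 to 16510, exact, counting error only). Mrpl18 stood at 143, 257 and 119 CPM in mRNA and 2.93, 0.456 and 0.512 CPM in RNC (log2 fold change -7.24, SE 0.70, adjusted p = 1.05e-05). Mrpl38 stood at 71.5, 207 and 107 CPM in mRNA and 12.8, 13.9 and 10.6 CPM in RNC (log2 fold change -3.24, SE 0.50, adjusted p = 3.71e-04). Called lower were 9, 26 and 8 members without liver 1, 2 and 3. Per-liver median log2 ratios were -3.92, -2.69 and -3.85 in HFD+LYC livers and 0.40 to 1.75 in the others.

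Genes whose products sit in the same particle but carry other symbols were set beside them, in a list also chosen after the values were seen. Of these 5, Gadd45gip1 was called higher, at 67.5, 46.2 and 87.3 CPM in mRNA and 161, 191 and 238 CPM in RNC (log2 fold change 1.58, SE 0.44, adjusted p = 0.0194, or 0.146, 0.104 and 0.145 without livers 1, 2 and 3). Aurkaip1 stood at 46.7, 32.7 and 65.8 CPM in mRNA and 116, 79.7 and 126.0 CPM in RNC and was not called (adjusted p = 0.0774, and a log2 fold change of 1.18 that turned to -0.32 with library sums). Chchd1 stood at 3.6, 5.92 and 6.32 CPM in mRNA and 16.8, 22.8 and 19.6 CPM in RNC (adjusted p = 0.140). The mean level of these 3 genes was higher in RNC than in mRNA, and that of the other pair lower. Dap3, which is named for a role in cell death, stood at 41.8, 74.1 and 32.7 CPM in mRNA and 20.2, 30.4 and 14.5 CPM in RNC (adjusted p = 0.118). Ptcd3 stood at 31.8, 41.6 and 31.8 CPM in mRNA and 6.66, 9.36 and 16.9 CPM in RNC (adjusted p = 0.0519). The 5 log2 fold changes ran from -1.77 to 1.93, with a median of 1.18 (-0.32 with library sums), and 4 of the 5 lay above the highest Mrpl or Mrps value, -1.41. A difference between these lists was not tested. The 5 were picked with values in view, and the Mrpl and Mrps list with earlier results of these data known.

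Low RNC values were also seen in other genes with ribosomal in their names. Whether reads were removed by gene name when the files were made is not stated and was not tested, and this bears on each ribosomal list above and below. The ribosomal S6 kinases are signalling enzymes that phosphorylate ribosomal protein S6 and other substrates, and are no part of the ribosome. Of 10 listed after the values were seen, 7 were tested, all 7 had every RNC library below every mRNA library, and 5 were called lower. Their median was -7.68, or -6.04 with the members at 0 RNC reads set to their bound. Rps6kb1 (chromosome 11, 86498869 to 86544885), the p70 S6 kinase, stood at 32.8, 42.8 and 26.7 CPM in mRNA and 0.266, 2.74 and 0.512 CPM in RNC (log2 fold change -5.25, SE 0.84, adjusted p = 5.24e-04). Rps6kb2 stood at 40.3, 39.4 and 34.7 CPM in mRNA and 0.266, 0 and 1.71 CPM in RNC (log2 fold change -6.19, SE 0.95, adjusted p = 5.06e-04, or 0.0509 without liver 1). Rps6ka1, an RSK kinase, had 181, 166 and 241 reads in mRNA and 1, 0 and 0 reads in RNC. Rps6ka2 had 110, 275 and 118 reads in mRNA and 0, 0 and 0 reads in RNC, at least 65.9-fold lower in RNC (adjusted p = 0.0116, or 0.0624, 0.2 and 0.0552 without livers 1, 2 and 3). Rps6ka4 was at least 52-fold lower (adjusted p = 0.0301, or 0.159, 0.114 and 0.135 without livers 1, 2 and 3). In the 5 members with at least 10 CPM elsewhere the per-liver median log2 ratio was -4.67, -5.04 and -4.47 in HFD+LYC livers and -1.14 to -0.35 in the others.

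In 6 genes for ribosomal-domain or ribosome-binding proteins, again listed after seeing the values, every RNC library lay below every mRNA library, and 3 were called lower (median -4.55). Rsl1d1, a nucleolar protein with a ribosomal L1 domain, stood at 27.3, 30.4 and 22.7 CPM in mRNA and 0.532, 0 and 1.54 CPM in RNC (log2 fold change -5.56, SE 1.09, adjusted p = 0.00205, or 0.0712 without liver 1). For comparison, 15 nucleolar factors that assemble ribosomes without such names, listed likewise, had a median of 0.16 (-1.34 with library sums) and 1 called lower. The 12 Snrp genes of the spliceosome, also listed after seeing the values, had a median of 0.13 (-1.39) with 1 called lower. Because all these lists were picked with values in view, differences between them and any link to gene names were not tested. The S6 kinase list without liver 1, 2 and 3 had 1, 3 and 2 called lower and the ribosomal-domain list 0, 2 and 1.

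Initiation and elongation factors had calls in both directions. Of 59, 7 were called higher and 2 lower, with a median of 0.31 (-1.19 with library sums). Pabpc4, a cytoplasmic poly(A)-binding protein, stood at 22, 40.3 and 15.2 CPM in mRNA and 128, 217 and 82.5 CPM in RNC (log2 fold change 2.47, SE 0.45, adjusted p = 0.00117, or 0.0648 without liver 1). Eif5b, which joins the ribosomal subunits, stood at 130.1, 166 and 111 CPM in mRNA and 474, 599.8 and 545 CPM in RNC (log2 fold change 2.00, SE 0.46, adjusted p = 0.00653, or 0.105 and 0.106 without livers 1 and 3). Eif2s3y, a Y-linked subunit of the factor that delivers initiator tRNA, stood at 54.4, 64.9 and 35.8 CPM in mRNA and 16, 1.83 and 5.29 CPM in RNC (log2 fold change -3.10, SE 0.67, adjusted p = 0.00434, or 0.062 without liver 3). Proteasome subunits had 5 of 37 called higher and 1 lower (median 0.39, -1.11 with library sums and -0.01 without liver 2). Psmd1 was at 38.6, 40.1 and 57.9 CPM in mRNA and 308, 444 and 429 CPM in RNC (adjusted p = 3.23e-04). Psmd11 was at 14, 11.8 and 20.2 CPM in mRNA and 45, 106 and 80.6 CPM in RNC (adjusted p = 0.00461, or 0.0666, 0.0664 and 0.0697 without livers 1, 2 and 3). Psmc6 was at 26.6, 37.4 and 31.4 CPM in mRNA and 1.86, 12.8 and 4.27 CPM in RNC (adjusted p = 0.0125, or 0.142 and 0.0964 without livers 1 and 3). Subunits of 1 complex thus lay on both sides.

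The direction for nuclear-encoded subunits of the respiratory chain and ATP synthase, which make ATP in mitochondria, differed between the scalings. Of 75, 28 were called higher and 1 lower with TMM, and 0 higher and 3 lower with library sums. The median of 1.396 turned to -0.12 with library sums, in each case above the all-gene median. Atp5d, a subunit of the ATP synthase stalk, stood at 107, 135 and 167 CPM in mRNA and 599, 883 and 933 CPM in RNC (log2 fold change 2.56, SE 0.49, adjusted p = 0.00165, or 0.0658 without liver 1). The complex I subunit Ndufb7 stood at 97.9, 59.9 and 152 CPM in mRNA and 478, 512 and 599.9 CPM in RNC (adjusted p = 0.00209, or 0.0712 without liver 1). Ndufa13, of the same complex, stood at 125, 49 and 211 CPM in mRNA and 613, 509.9 and 683 CPM in RNC (adjusted p = 0.0031, or 0.0853 without liver 1). The 3 genes did not overlap between RNC and mRNA. Members called higher numbered 0, 5 and 16 without liver 1, 2 and 3, and 8 without the liver block. The per-liver medians of 1.14, 2.28 and 0.30 lay within or below the 0.68 to 2.29 of the other diets' livers.

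**Figure D2:**
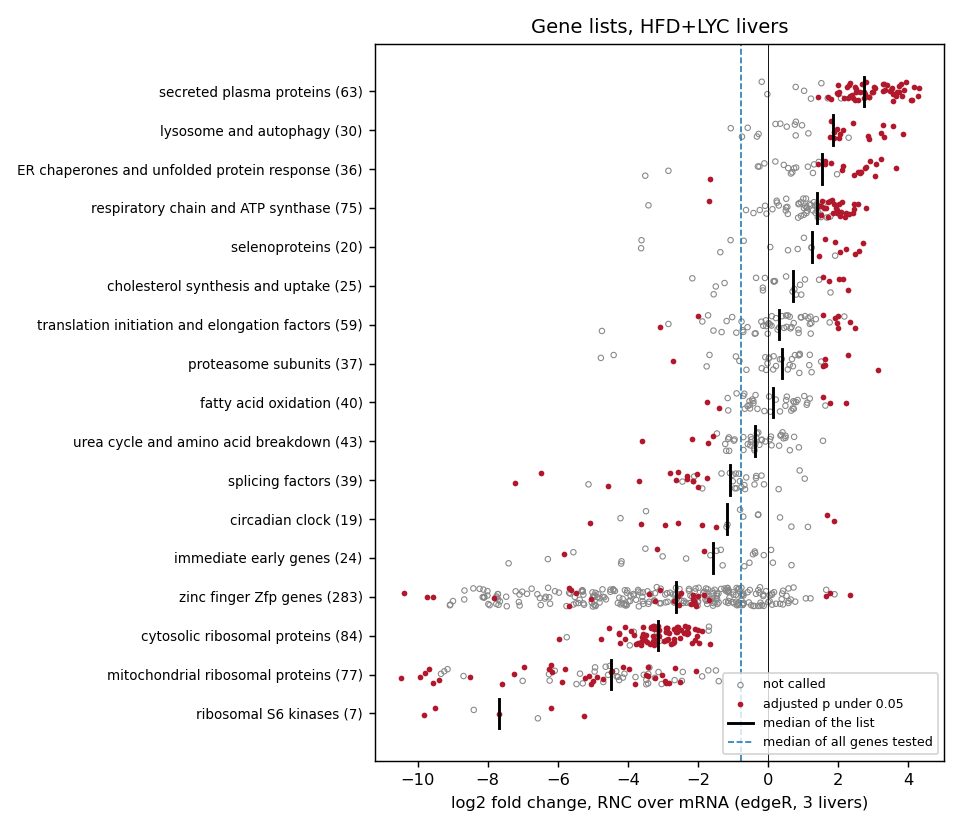
Log2 fold change of RNC over mRNA for each tested member of 17 gene lists in the HFD+LYC livers, with filled points called, open points not called, black bars for list medians and the dashed line at the all-gene median of -0.78. Secreted protein genes centre at 2.74, and the ribosomal lists at the bottom have all members below 0. With library sums the medians of the respiratory, selenoprotein, cholesterol, translation factor, proteasome and fatty acid oxidation lists turn negative.

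Few nuclear and non-coding RNAs passed the test. Of 12 tested nuclear or imprinted long non-coding RNAs, 2 were called lower and 0 higher, against 7.65% and 6.44% of all genes. In 5 every RNC library lay below every mRNA library, against 31.1% of all genes, and the median was -2.72. Counts this small do not set the list apart from all genes. Neat1 (chromosome 19, 5824708 to 5845480), the scaffold of nuclear paraspeckles, stood at 588, 779 and 667 CPM in mRNA and 25.8, 54.1 and 61.3 CPM in RNC (log2 fold change -3.93, SE 0.52, adjusted p = 1.32e-04). Firre, an X-linked nuclear RNA, stood at 108, 117 and 96.9 CPM in mRNA and 32.5, 5.71 and 13.7 CPM in RNC (log2 fold change -2.93, SE 0.55, adjusted p = 0.0014). Malat1 (chromosome 19, 5795690 to 5802672), an abundant RNA of nuclear speckles, stood at 264, 123 and 309 CPM in mRNA and 570.0, 528 and 464 CPM in RNC. All 3 RNC values lay above all mRNA values, but the gene was not called (log2 fold change 1.26, SE 0.49, adjusted p = 0.0928, and -0.24 on the log2 scale with library sums). Meg3, an imprinted RNA, had 98, 43 and 57 reads in mRNA and 0, 14 and 0 reads in RNC and was not called (adjusted p = 0.357).

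Host genes of small nucleolar RNAs have spliced transcripts that are often degraded by nonsense-mediated decay on ribosomes. Of 17 tested, 2 were called lower, against 7.65% of all genes, and 0 higher (median -1.82). Snhg3 stood at 35.5, 49.4 and 37.4 CPM in mRNA and 1.33, 1.83 and 11.1 CPM in RNC (adjusted p = 0.0028, or 0.0951 and 0.0588 without livers 1 and 2). Snhg20 stood at 99.1, 85.2 and 66 CPM in mRNA and 25, 15.1 and 42.4 CPM in RNC (adjusted p = 0.0251, or 0.246 and 0.158 without livers 1 and 2). Neither Gas5 nor Snhg1 was called. Gas5 stood at 42.4, 25.6 and 31.6 CPM in mRNA and 17.3, 15.3 and 1.2 CPM in RNC (adjusted p = 0.0954). Snhg1 stood at 7.75, 5.42 and 4.5 CPM in mRNA and 6.66, 0 and 2.56 CPM in RNC (adjusted p = 0.641). The list had 0, 0 and 2 called lower without liver 1, 2 and 3.

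The largest rises in RNC included RNAs that are not mRNAs. Rpph1 (chromosome 14, 50807447 to 50807771), the RNA of ribonuclease P, which trims tRNA precursors, had 8, 16 and 18 reads in mRNA and 2152, 1560 and 3925 reads in RNC (log2 fold change 8.80, SE 0.65, adjusted p = 2.14e-07). Rmrp (chromosome 4, 43492785 to 43493059), the RNA of ribonuclease MRP, which cuts ribosomal RNA precursors, had 0, 2 and 0 reads in mRNA and 177, 129 and 545 reads in RNC. The ratio of RNC to mRNA was 1081 (95% interval 298 to 8942, exact, counting error only, adjusted p = 2.31e-05). Neither RNA normally carries a poly(A) tail. In the control and HFD RNC libraries Rpph1 had 7 to 155 reads and Rmrp 0 to 9 reads. Of 1298 listed small structured RNAs, 1289 had no RNC read in these livers, and the 4 tested, these 2 among them, passed the filter on low counts through the RNC libraries.

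Splicing factors, which act in the nucleus as proteins but are translated in the cytoplasm, had 14 of 39 called lower and 0 higher (median -1.09). Srsf11 stood at 318, 372 and 252 CPM in mRNA and 32.7, 19.6 and 21.5 CPM in RNC (adjusted p = 1.32e-04). Srsf5 stood at 142, 114 and 127 CPM in mRNA and 17.6, 23.1 and 15.2 CPM in RNC (adjusted p = 6.81e-04, or 0.055 without liver 1). Srsf2 stood at 157, 139 and 119 CPM in mRNA and 26.1, 27.4 and 30.2 CPM in RNC (adjusted p = 0.00204, or 0.0821 without liver 1). The Zfp zinc finger genes are mostly transcription factors of low abundance. Of 283 tested, 26 were called lower, near the 7.65% of all genes, and 3 higher (median -2.63, or -2.53 with members at 0 reads at their bound). Among genes of at least 10 CPM in control and HFD mRNA, 12 of 166 Zfp genes (7.23%) had no RNC read, against 1.37% of all such genes. Zfp488 stood at 206, 246 and 156 CPM in mRNA and 7.45, 0.913 and 7.0 CPM in RNC (adjusted p = 4.07e-04). Zfp276 stood at 152, 234 and 133 CPM in mRNA and 10.1, 20.8 and 19 CPM in RNC (adjusted p = 2.08e-04). Zfp970 stood at 302, 499.7 and 152 CPM in mRNA and 42.9, 63.9 and 30.9 CPM in RNC (adjusted p = 7.96e-04, or 0.0591 without liver 1). Without liver 1, 2 and 3, 3, 10 and 10 splicing factors and 4, 11 and 17 Zfp genes were called lower.

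Metabolic lists were split. Fatty acid and triglyceride synthesis had 3 of 24 called higher and 2 lower (median 0.72, -0.78 with library sums). Agpat2, an acyltransferase of triglyceride assembly, was at 112, 64.2 and 136 CPM in mRNA and 645, 292 and 400.4 CPM in RNC (adjusted p = 0.00517, or 0.131 without liver 1). Fads2, a fatty acid desaturase, was at 40.2, 40.7 and 73.3 CPM in mRNA and 136, 189.9 and 183 CPM in RNC (adjusted p = 0.011, or 0.148, 0.0661 and 0.0796 without livers 1, 2 and 3). Mlxipl, the carbohydrate-responsive transcription factor ChREBP, was at 1361, 1321 and 1056 CPM in mRNA and 101, 68.9 and 200.3 CPM in RNC (log2 fold change -3.48, SE 0.57, adjusted p = 6.36e-04, or 0.0537 without liver 1). The major lipogenic enzymes Fasn and Scd1 were not called. Fasn stood at 521, 358 and 435 CPM in mRNA and 688, 907 and 1131 CPM in RNC (adjusted p = 0.180), and its log2 fold change of 1.04 turned to -0.43 with library sums. Scd1 stood at 3153, 4297 and 4505 CPM in mRNA and 6915, 12375 and 8355 CPM in RNC (adjusted p = 0.218), with a log2 fold change of 1.18 that turned to -0.31. Mfsd2a, a lysophospholipid transporter, stood at 253, 522 and 321 CPM in mRNA and 179, 126.5 and 195 CPM in RNC (adjusted p = 0.147).

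Cholesterol synthesis and uptake had 5 of 25 called higher and 0 lower (median 0.70, -0.79 with library sums). Ebp, a sterol isomerase of the ER membrane, stood at 84.5, 39.1 and 118 CPM in mRNA and 675, 163 and 396 CPM in RNC (adjusted p = 0.0033, or 0.12 without liver 1). Sc5d, a sterol desaturase of the same membrane, stood at 91.7, 67.7 and 143 CPM in mRNA and 487, 259 and 253 CPM in RNC (adjusted p = 0.0191, or 0.27, 0.0975 and 0.0608 without livers 1, 2 and 3). Cytochrome P450 genes had 6 of 42 called higher and 2 lower (median 0.59, -0.91). Cyp27a1, a mitochondrial sterol hydroxylase, stood at 871, 809.7 and 869 CPM in mRNA and 170.4, 82.6 and 261 CPM in RNC (adjusted p = 0.0035, or 0.0854 without liver 1). Cyp2c29 of the ER, which has close copies, stood at 49, 52.2 and 85.5 CPM in mRNA and 292, 119.6 and 274 CPM in RNC (adjusted p = 0.0116, or 0.219 and 0.114 without livers 1 and 3). Without liver 1, 2 and 3 the cholesterol list had 0, 2 and 2 and the P450 list 0, 1 and 1 called higher.

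Fatty acid oxidation had 3 of 40 called higher and 2 lower, near the background, with a median of 0.14 (-1.38 with library sums and -0.21 without liver 2). Vnn1, a pantetheinase, was higher, at 23.3, 27.9 and 68.8 CPM in mRNA and 294, 102 and 161 CPM in RNC (adjusted p = 0.00704, or 0.184 and 0.0537 without livers 1 and 2). Cpt2, of carnitine-dependent import, was higher, at 70.7, 43.3 and 92.1 CPM in mRNA and 169, 290.1 and 226 CPM in RNC (adjusted p = 0.0163, or 0.129, 0.127 and 0.103 without livers 1, 2 and 3). Etfa, an electron transfer subunit, was lower, at 193, 129.7 and 264 CPM in mRNA and 44.5, 73.7 and 54 CPM in RNC (adjusted p = 0.016, or 0.223 and 0.139 without livers 1 and 3). The urea cycle and amino acid breakdown list had 4 of 43 called lower, near the 7.65% of all genes, and 0 higher (median -0.36). Bckdhb, of branched-chain amino acid breakdown, stood at 142, 329.6 and 175 CPM in mRNA and 10.9, 30.4 and 14 CPM in RNC (adjusted p = 1.28e-04). Uroc1, of histidine breakdown, stood at 705, 794 and 687 CPM in mRNA and 108, 145 and 265 CPM in RNC (adjusted p = 0.00646, or 0.142 without liver 1). The aminotransferase Got1 stood at 73.8, 494 and 218 CPM in mRNA and 43.4, 55 and 91.4 CPM in RNC (adjusted p = 0.0324, or 0.122, 0.196 and 0.108 without livers 1, 2 and 3). The RNC and mRNA libraries of Bckdhb and Uroc1 did not overlap, and those of Got1 did, with its lowest mRNA value in liver 1.

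Clock and immediate early genes were more often called lower in RNC than higher, as were all genes tested (7.65% against 6.44%). Circadian clock genes had 6 of 19 called lower and 2 higher (median -1.16), and immediate early genes 3 of 24 called lower and 0 higher (median -1.56). Per2, a clock repressor (chromosome 1, 91415977 to 91459351), stood at 266, 242 and 221 CPM in mRNA and 21.3, 13.2 and 25.8 CPM in RNC (log2 fold change -3.64, SE 0.49, adjusted p = 1.32e-04). Nr1d2, a heme-binding repressor, stood at 86.1, 123 and 72.8 CPM in mRNA and 9.58, 21.9 and 16.7 CPM in RNC (adjusted p = 0.00131, or 0.0712 without liver 1). Nfil3 stood at 60.5, 22.8 and 50.2 CPM in mRNA and 0, 1.6 and 2.39 CPM in RNC (adjusted p = 0.00348, or 0.0531 without liver 3). The clock output factor Dbp and the repressor Ciart were not called. Dbp stood at 102, 70.2 and 64.8 CPM in mRNA and 114, 86.3 and 95.6 CPM in RNC (adjusted p = 0.640), and its log2 fold change of 0.34 turned to -1.15 with library sums. Ciart stood at 91.9, 92.3 and 51.2 CPM in mRNA and 0, 11.2 and 20.7 CPM in RNC (adjusted p = 0.164). The immediate early genes called lower have short-lived mRNAs in many tissues. Dusp1, a MAP kinase phosphatase, was at 126.2, 108 and 66.8 CPM in mRNA and 15.7, 3.42 and 19.8 CPM in RNC (adjusted p = 0.0027, or 0.0923 without liver 1). Zfp36, an mRNA decay factor, was at 107, 97 and 151 CPM in mRNA and 16.5, 41.8 and 48.8 CPM in RNC (adjusted p = 0.0123, or 0.212 and 0.0762 without livers 1 and 3). Socs3, an inhibitor of cytokine signalling, was at 20.1, 19 and 10.2 CPM in mRNA and 2.93, 0 and 0 CPM in RNC (adjusted p = 0.0292, or 0.0712, 0.175 and 0.144 without livers 1, 2 and 3). Without liver 1, 2 and 3 the clock list had 2, 4 and 3 and the early gene list 0, 2 and 1 called lower.

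Among 17 stress response mRNAs with upstream open reading frames, edgeR's quasi-likelihood test called 0, with 3 at an unadjusted p under 0.05, while DESeq2 called 4 and limma-voom 1. Atf4, the integrated stress response factor whose frames hold back its translation, stood at 120.4, 99.1 and 87.7 CPM in mRNA and 65.8, 54.5 and 77.4 CPM in RNC (adjusted p = 0.357). Atf5 stood at 126.2, 52.5 and 142 CPM in mRNA and 182, 371 and 313 CPM in RNC (adjusted p = 0.0597). Cebpb stood at 305, 339.9 and 343 CPM in mRNA and 128, 212 and 169 CPM in RNC (adjusted p = 0.152). Of 11 polyamine and antizyme genes 1 was called, lower in RNC. This gene, Sat1, a polyamine acetyltransferase, stood at 42.3, 69 and 35.5 CPM in mRNA and 9.58, 13.9 and 17.2 CPM in RNC (adjusted p = 0.0252, or 0.199, 0.173 and 0.0513 without livers 1, 2 and 3). Odc1, the first enzyme of polyamine synthesis, stood at 19.6, 22.9 and 17.8 CPM in mRNA and 13, 6.85 and 9.56 CPM in RNC (adjusted p = 0.357). Azin1, an antizyme inhibitor, stood at 71.6, 62.2 and 69.8 CPM in mRNA and 26.4, 54.3 and 45.4 CPM in RNC (adjusted p = 0.298). Of 11 genes with iron-responsive elements edgeR called 0, with 3 at an unadjusted p under 0.05, DESeq2 3 and limma-voom 2. Among them were both ferritin subunits. Fth1 stood at 491, 263 and 905 CPM in mRNA and 1503, 863 and 958 CPM in RNC (adjusted p = 0.173), and its log2 fold change of 1.15 turned to -0.37 with library sums. Ftl1 stood at 2916, 1511 and 4286 CPM in mRNA and 11248, 8789 and 11163 CPM in RNC (adjusted p = 0.0502).

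Markers of cell types were followed to see which cells' RNA reached the RNC libraries. Hepatocyte markers had 7 of 20 called higher and 0 lower, with a list median of 0.62 (-0.88 with library sums). The list shares members with that of secreted proteins. With ribosomal and secreted protein genes left out, 2 of 14 were called higher and the median was -0.14. Asgr1, a subunit of the asialoglycoprotein receptor, stood at 190.0, 111 and 344 CPM in mRNA and 2656, 624 and 1277 CPM in RNC (adjusted p = 0.00325, or 0.0973 without liver 1). Asgr2, its partner, stood at 59.98, 44.4 and 81.3 CPM in mRNA and 658, 166 and 318 CPM in RNC (adjusted p = 0.00265, or 0.114 without liver 1). Markers of Kupffer cells, the liver macrophages, had 1 of 23 called higher, the complement gene C1qa, and a summed level of 229 to 321 CPM in mRNA and 290.3 to 415 CPM in RNC. C1qa stood at 12.4, 9.51 and 18.6 CPM in mRNA and 59.9, 39.7 and 50.03 CPM in RNC (adjusted p = 0.0158, or 0.174, 0.0825 and 0.0935 without livers 1, 2 and 3). Sinusoidal endothelial markers had 3 of 20 called lower and 0 higher (median -1.36, summed level 549 to 687 CPM in mRNA and 214 to 350.2 CPM in RNC). The genes called were 2 scavenger receptors and a co-receptor of TGF-β. Stab2 stood at 57.6, 77.2 and 61.5 CPM in mRNA and 5.86, 6.16 and 6.49 CPM in RNC (adjusted p = 4.13e-04). Stab1 stood at 132, 228 and 138 CPM in mRNA and 45.5, 23.7 and 67.5 CPM in RNC (adjusted p = 0.0145, or 0.142 and 0.105 without livers 1 and 2). Eng, the co-receptor, stood at 99.8, 109.9 and 95.9 CPM in mRNA and 3.73, 16.2 and 36.9 CPM in RNC (adjusted p = 0.00672, or 0.114 and 0.162 without livers 1 and 2). Stellate cell and collagen markers had 0 of 18 called by edgeR, with 1 at an unadjusted p under 0.05, and 1 each by DESeq2 and limma-voom (summed level 282 to 482 CPM in mRNA and 248 to 322 CPM in RNC). The erythroid gene Hba-a1, which shares reads with Hba-a2, stood at 69.6, 121 and 75.8 CPM in mRNA and 134, 157 and 148 CPM in RNC (adjusted p = 0.244, and a log2 fold change of 0.77 that turned to -0.73 with library sums).

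Genes of striated muscle were among the largest rises. Myh6 (chromosome 14, 54941921 to 54968017) and Myh7 (chromosome 14, 54970684 to 54994626), the myosin heavy chains of heart and slow muscle, had no read in the 3 mRNA libraries. Myh6 had 324, 193 and 203 reads in RNC, at least 650.5-fold higher than the floor of 3 mRNA reads (adjusted p = 3.65e-06). Myh7 had 141, 39 and 69 reads, at least 229.6-fold higher (adjusted p = 0.0011, or 0.128 without liver 1). Ttn, the giant sarcomere protein titin, had 2, 3 and 3 reads in mRNA and 246, 294 and 210 reads in RNC (log2 fold change 7.82, SE 0.73, adjusted p = 3.65e-06). Myh6, Myh7 and Ttn passed the filter on low counts only through the RNC libraries, so a fall in them could not have entered the test. In the 6 other RNC libraries Myh6 had 0 to 1 reads, Ttn 0 to 4 reads and Myh7 none. Of 25 listed muscle markers 8 were tested and 3 called higher, 13 had no RNC read in the HFD+LYC livers, among them the muscle creatine kinase gene Ckm and the fast myosins Myh1, Myh2 and Myh4, and the summed level was 28.7 to 44.2 CPM in mRNA and 116 to 263 CPM in RNC. Mb, Neb, Tnni3, Tnnt2 and Tnnc1 were tested and not called. The source of the muscle reads was not tested. Markers of further cells were too few to describe, with at most 7 tested, among them Cdh1 of bile duct cells called higher and Adrb3 of adipocytes called lower.

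Other called genes with large rises encode regulators. Hipk2, a nuclear kinase, stood at 1.85, 0.834 and 2.61 CPM in mRNA and 25, 53 and 82.1 CPM in RNC (adjusted p = 1.37e-04). Ube3a, a ubiquitin ligase, stood at 7.38, 3.5 and 8.13 CPM in mRNA and 157, 139 and 131 CPM in RNC (adjusted p = 3.25e-05). Prkar2a, a regulatory subunit of protein kinase A, stood at 2.21, 1.59 and 1.89 CPM in mRNA and 33.8, 45 and 68.5 CPM in RNC (adjusted p = 1.62e-04). Zbed6, a zinc finger gene that lies within an intron of another gene, had 4, 0 and 6 reads in mRNA and 73, 114 and 38 reads in RNC (adjusted p = 0.0188, or 0.148 and 0.264 without livers 1 and 2). In each of these genes the RNC and mRNA libraries did not overlap, and Zbed6 passed the filter on low counts only through the RNC libraries.

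Several genes with large falls had no RNC read. Mir22hg (chromosome 11, 75461539 to 75466690), the host transcript of a microRNA, had 795, 993 and 654 reads in mRNA and 0, 0 and 0 reads in RNC, against 108 to 279 reads in the 6 other RNC libraries. It was at least 323-fold lower in RNC (adjusted p = 3.65e-06). Ankrd10 had 488, 649 and 414 reads in mRNA and 0, 0 and 0 reads in RNC (at least 205-fold lower, adjusted p = 2.60e-05), against 46 to 66 reads elsewhere. Rmi1, of a complex that resolves recombination intermediates, had 301, 414 and 306 reads in mRNA and 0, 0 and 0 reads in RNC (at least 134-fold lower, adjusted p = 1.90e-04), against 62 to 180 reads elsewhere. The unnamed loci Gm44502 and Gm17644 were likewise at 0 in all 3 RNC libraries, at least 145-fold and 141-fold lower (adjusted p = 1.90e-04, or 0.0815 without liver 1 for Gm17644).

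Reads were missing across many genes of middling level. A set of 8235 genes was taken by a mean mRNA level of 10 CPM or more in the 6 control and HFD livers, a measure that does not use the HFD+LYC livers. Of these, 1024, 712 and 537 had 0 reads in the HFD+LYC RNC libraries of livers 1, 2 and 3, or 12.4%, 8.65% and 6.52%. The 6 control and HFD RNC libraries lacked 0 to 3 of them and the 3 HFD+LYC mRNA libraries 0 to 1. The 6 control and HFD mRNA libraries lacked 0 to 1, but the set was chosen by their level. A count of 0 allows up to 3 reads, or 0.265, 0.662 and 0.335 CPM in the 3 libraries before TMM scaling. The share fell with level, from 22.2%, 16.0% and 12.5% at 10 to 30 CPM to 5.84%, 3.50% and 2.15% at 30 to 100 CPM, and no gene over 1000 CPM was lacking. Genes lacking in 1, 2 or 3 of the livers numbered 1118, 408 and 113. The 113 made up 1.37% of the 8235 and held 98 coding, 5 mixed and 10 non-coding genes, with 9 of 76 mitochondrial ribosomal protein genes, 12 of 166 Zfp genes and no cytosolic ribosomal or secreted protein gene.

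**Figure D3:**
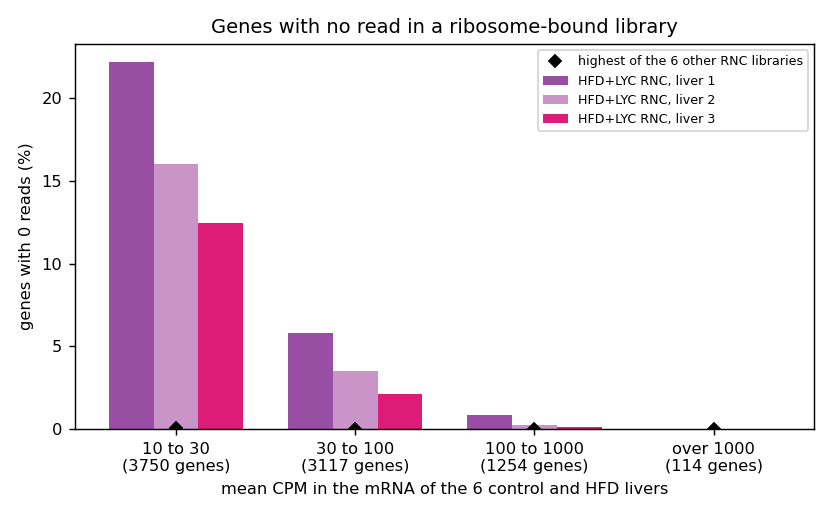
Percentage of genes with 0 reads in each HFD+LYC RNC library (bars, livers 1 to 3), by the gene's mean level in control and HFD mRNA, with diamonds at the highest of the 6 other RNC libraries. The bars fall from 22.2%, 16.0% and 12.5% at 10 to 30 CPM to 0 over 1000 CPM, while the diamonds stay at or below 0.0800%.

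The number of genes with a read was 9515 ± 550 in HFD+LYC RNC libraries (SD, n = 3) and 14106 ± 406 in the other 6 (SD, n = 6), a difference of -4592 (exact permutation test over livers, two-sided, p = 0.0119, the smallest that 84 splits allow, adjusted p = 0.0238 over 4 measures). Against the 3 HFD livers alone the difference was -4512 (exact permutation test, p = 0.10, the smallest that 20 splits allow). At the read total of the smallest library the expected numbers were 8822, 9567 and 9983 genes in HFD+LYC RNC and 13195 to 13675 in the others.

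The log ratio was then related to transcript length, gene level and coding class in each liver, over the 8235 genes with at least 10 CPM elsewhere and as log2 of RNC over mRNA with 0.5 CPM added to each. Short transcripts had higher ratios in every liver. Spearman's rho between the ratio and the length of the longest transcript, across genes, which are not independent replicates, was -0.22, -0.24 and -0.09 in HFD+LYC livers 1, 2 and 3, against -0.50 to -0.39 in the 6 others. The HFD+LYC livers thus had the weaker rank correlation, by 0.258 on average (exact two-sided permutation, p = 0.0119, adjusted p = 0.0238 over 4 measures), and by 0.238 against HFD alone (p = 0.10, the smallest possible). Median log2 ratios of genes under 1 kb were 0.68, 1.25 and 0.06 and of genes over 5 kb -0.98, -0.81 and -0.38 in livers 1, 2 and 3, so liver 3 showed the least difference between classes. In the 6 other livers these medians were 0.50 to 1.84 and -0.90 to -0.28. The fall between these classes in livers 1 and 2 was thus not smaller than in most other livers.

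Ribosomal proteins are a part of the short class. Of 631 genes under 1 kb, 97 encoded cytosolic or mitochondrial ribosomal proteins, with medians of -3.52, -1.80 and -3.76 in the HFD+LYC livers, and the 534 others had 1.00, 1.601 and 0.31. In the 6 other livers the 2 groups lay close to each other, at 0.42 to 1.96 for ribosomal proteins and 0.52 to 1.82 for the rest. With ribosomal and secreted protein genes left out, an alternative added after seeing the data, the length relation still differed by 0.207 (exact permutation test, p = 0.0119). In the test of single genes 17.5% of 893 genes under 1 kb were called higher and 9.74% lower, against 3.06% and 8.24% of 1929 genes over 5 kb.

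**Figure D4:**
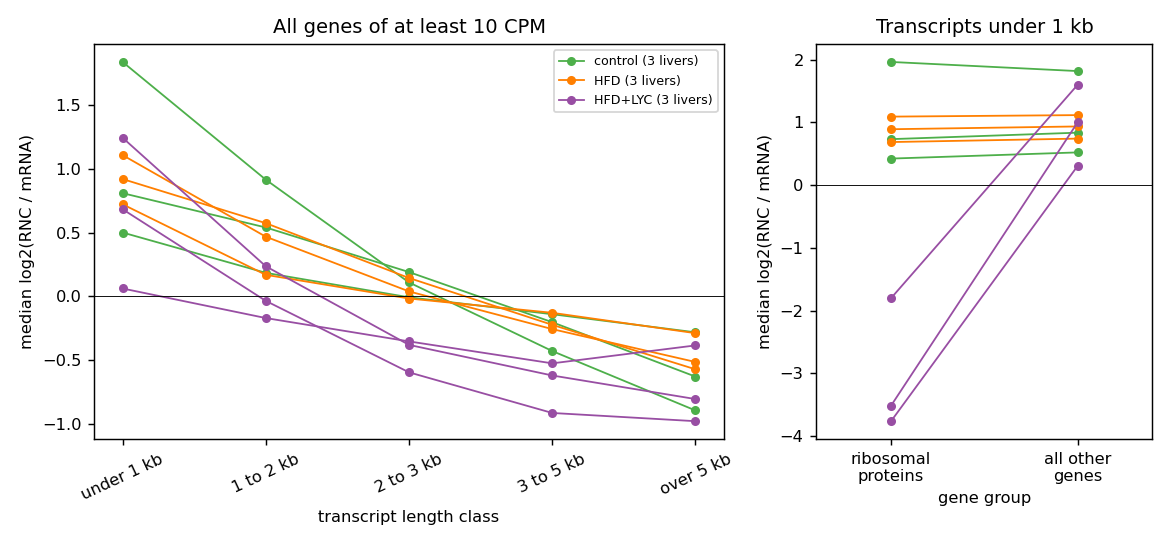
Median log2 ratio of RNC to mRNA in each of 9 livers by transcript length class (left), and for transcripts under 1 kb split into ribosomal proteins and all other genes (right), one line per liver. All lines fall with length between the first class and 3 to 5 kb, and only the HFD+LYC livers have ribosomal proteins below 0, at -3.52, -1.80 and -3.76.

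Gene level bore a weak relation to the ratio, with rho of 0.15, 0.17 and 0.09 in HFD+LYC livers and 0.11 to 0.14 in the others. The level came from the control and HFD mRNA libraries. These are also the denominators of the ratios in those livers, but not in the HFD+LYC livers. The values of HFD+LYC and other livers in this paragraph are thus not fully alike. The difference of 0.0131 was within the spread between livers (exact two-sided permutation, p = 0.452, adjusted p = 0.603). The sign of this difference depended on the gene set and the liver, as it was -0.0303 over genes of at least 50 CPM and -0.00254 without liver 2. It was 0.0363 without liver 3 (exact permutation, p = 0.0357). In the top class, the 114 genes over 1000 CPM, the median log2 ratio was 1.80, 1.70 and 0.76 in HFD+LYC livers and 0.34 to 1.55 in the others, and in the 3750 genes of 10 to 30 CPM it was -0.72, -0.53 and -0.42 against -0.09 to -0.00.

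Genes listed only with non-coding RefSeq identifiers (NR_) had lower ratios than coding ones (NM_) in all 9 livers. In HFD+LYC livers the median log2 ratio was -1.82, -1.41 and -1.41 over 118 non-coding genes and -0.55, -0.32 and -0.31 over 7755 genes with coding identifiers only. Genes with both, 362, lay between at -0.93, -0.56 and -0.54. The median of non-coding genes less that of genes with any coding identifier was -1.14 ± 0.0998 in HFD+LYC livers and -1.24 ± 0.522 in the other 6 (SD, n = 3 and 6), a difference of 0.0964 that was within the spread (exact two-sided permutation, p = 0.750). Over genes of at least 1 CPM the difference was -0.0329. Of 340 non-coding genes in the test of single genes, 7 (2.06%) were called higher and 36 (10.6%) lower, against 6.66% and 7.38% of 10765 coding genes.

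Which of these ratios differed from those of livers without lycopene was asked with a change of the RNC to mRNA ratio, fitted over all 18 libraries. In this fit the 3 diets shared 1 estimate of spread. The biological coefficient of variation, a measure of spread between libraries, was 0.43 here and 0.776 in the fit of the 6 HFD+LYC libraries. The SEs and p-values of these changes may thus be too small for the HFD+LYC livers. Against HFD, 327 of 12872 genes (2.54%) had the ratio called higher in HFD+LYC livers and 1300 (10.1%) lower, with a median log2 change of -0.74. Against control the numbers were 270 (2.10%) and 1120 (8.70%), median -0.73. Both comparisons use the same HFD+LYC livers. Fitted on the 12 libraries of the 2 diets alone, 67 and 168 were called against HFD and 28 and 104 against control. With library sums in place of TMM, 120 were called higher and 2119 lower against HFD, or 5.36% of calls higher in place of 20.1%, and 87 and 1808 against control, or 4.59% in place of 19.4%. Leaving out HFD replicate 1, 2 or 3 left 40, 102 and 48 called higher and 167, 376 and 230 lower against HFD, and leaving out control replicate 1, 2 or 3 left 60, 100 and 41 called higher and 276, 300 and 213 lower against control. Without HFD+LYC liver 2, 1796 were called lower against control.

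The lists that stood out within the HFD+LYC livers also held many of these calls. All 85 tested cytosolic ribosomal protein genes were called lower against HFD and all 85 against control, with median changes of -4.02 and -4.23, and 73 of 78 mitochondrial ribosomal protein genes were called lower in each. Of 63 secreted protein genes, 30 were called higher against HFD and 25 against control, and none lower. S6 kinases, listed after the values were seen, had 8 of 9 called lower against HFD and 7 against control. Of 30 lysosome genes 8 were called higher in each, whereas of 75 respiratory chain genes 2 were called higher against HFD and 0 against control. Splicing factors had 11 of 39 and 9 of 39 called lower.

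These list counts moved with the libraries and the scaling used. On the 12 libraries of the 2 diets, 60 cytosolic ribosomal protein genes were called lower against HFD and 40 against control. In that fit 37 and 29 mitochondrial ribosomal protein genes, 2 and 2 S6 kinases and 1 and 1 splicing factors were called lower. Secreted protein genes called higher then numbered 4 and 0, and lysosome genes 1 and 0. Leaving out HFD replicate 1, 2 or 3 left 43, 65 and 61 cytosolic ribosomal, 36, 52 and 48 mitochondrial ribosomal, 4, 6 and 4 S6 kinase and 1, 5 and 1 splicing factor genes called lower against HFD. It left 5, 6 and 0 secreted and 0, 2 and 0 lysosome genes called higher. Leaving out control replicate 1, 2 or 3 left 69, 64 and 63 cytosolic ribosomal, 59, 54 and 50 mitochondrial ribosomal, 4, 6 and 4 S6 kinase and 2, 4 and 1 splicing factor genes called lower against control. It left 2, 8 and 0 secreted and 0, 3 and 0 lysosome genes called higher. Without HFD+LYC liver 1 the secreted genes called higher were 20 and 10, and the lysosome genes 3 and 2. With library sums the lysosome genes called higher were 4 and 3 and the splicing factors called lower 19 and 18.

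**Figure D5:**
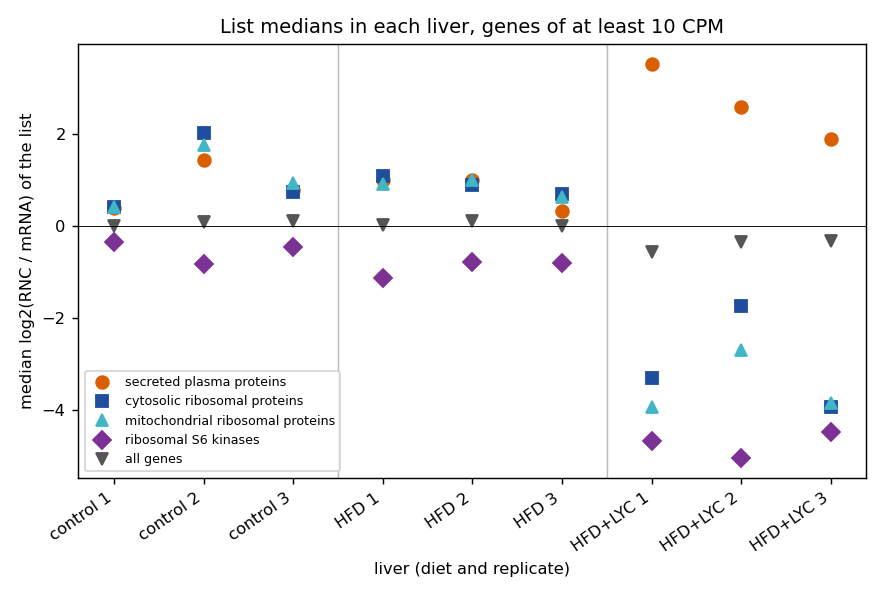
Median log2 ratio of RNC to mRNA of 4 lists and of all genes in each of the 9 livers, over members with at least 10 CPM in control and HFD mRNA. In control and HFD livers the ribosomal and secreted lists lie together between 0.32 and 2.02, and in the 3 HFD+LYC livers the secreted list lies at 1.88 to 3.52 and the ribosomal lists at -3.92 to -1.74.

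The genes with the smallest p were of both kinds. Malat1 had log2 ratios of 0.98, 2.03 and 0.51 in HFD+LYC livers and -5.26 to -3.20 in the 6 others (log2 change 5.26, SE 0.62, adjusted p = 0.0019 against HFD). In the other 6 livers its ratio was thus below 0. Nfib, a transcription factor, had ratios of 3.79, 3.84 and 4.25 against -0.56 to 0.08 elsewhere (log2 change 4.19, SE 0.38, adjusted p = 7.62e-04). Samd4b, an RNA-binding protein, had 3.44, 3.49 and 3.61 against -0.83 to -0.20 (log2 change 4.197, SE 0.37, adjusted p = 7.62e-04). The histone demethylase Kdm7a (log2 change 3.56, SE 0.39, adjusted p = 0.00141), the transcription factor Foxp1 (log2 change 3.25, SE 0.37, adjusted p = 0.0016) and Pabpc4 (log2 change 3.23, SE 0.41, adjusted p = 0.00242) also rose. Foxp1 stood at 15, 15.2 and 13.8 CPM in mRNA and 130.2, 131 and 131 CPM in RNC in the HFD+LYC livers. Among the 6 smallest p in the comparison with control, 2310033P09Rik took the place of Pabpc4 (log2 change 3.45, SE 0.44, adjusted p = 0.00242).

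Of the 6 genes with the smallest p among falls, 5 encode ribosomal proteins. Mrpl4 had ratios of -6.48, -5.96 and -5.46 in HFD+LYC livers and -0.13 to 0.38 elsewhere (log2 change -8.69, SE 0.70, adjusted p = 7.55e-04). Rpl21 had -3.58, -3.83 and -3.99 and 0.51 to 1.63 (log2 change -4.91, SE 0.42, adjusted p = 7.55e-04). Mrps2 had -3.86, -3.60 and -4.06 and 0.18 to 1.18 (log2 change -5.48, SE 0.52, adjusted p = 8.58e-04). Mrps33 (adjusted p = 8.58e-04) and Mrps10 (adjusted p = 0.00103) had 0 and 1 reads over the 3 HFD+LYC RNC libraries. Hnrnph2, a splicing regulator, had 184, 227 and 256 reads in mRNA and 0, 2 and 0 reads in RNC in the HFD+LYC livers and 181 to 650 reads in the other RNC libraries (adjusted p = 0.00121). The same 6 genes led the falls against control. For each of these 6 the HFD+LYC livers lay below the 6 others.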

How the data were processed

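RNA sequencing of 18 libraries from 9 livers was used, with 1 RNC and 1 mRNA library per liver and 3 livers per diet. The authors deposited, per the file headers, a read count for each gene in each sample, an RPKM value, which was not tested here, and a maximum length, taken as the length in bases of the gene's longest transcript. Reads were mapped to RefSeq RNA sequences per the labels, and bcl2fastq and the build mm10 are named in the submitters' processing notes. The sources used here give neither the mapping and counting software nor whether counting used strand. Reads of an antisense or overlapping gene, or of a close copy, may thus be counted in its partner.

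The members and lists were chosen with earlier results of these data known. There are 37 lists, and 6 more were put together after values were seen, as were the genes named from them and the few others named by count. The RNC and mRNA libraries of a liver were paired by the animal code they share, which comes from the same animal. Their deviations from the group means correlated by 0.100, 0.083 and -0.061 in livers 1, 2 and 3.

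Counts as deposited were filtered with filterByExpr (a minimum count of 10, total of 15), scaled by TMM and fitted with edgeR 4.0.16 (R 4.3.3, robust quasi-likelihood, liver as a block, 2 residual degrees of freedom in the fit of 6 libraries). A gene with no or few reads in 1 kind of library passed the filter through the other kind, so its test could show only 1 direction. p-values were adjusted by Benjamini-Hochberg over all genes tested, with a threshold of 0.05. The change of the ratio between diets is the interaction of diet and library kind over 18 libraries. Per-liver measures used log2 of RNC over mRNA with 0.5 CPM added and were compared over livers by exact permutation tests. Named genes are the 12 largest rises and falls with at least 10 CPM in the higher kind and no overlap, the 3 members of a described list with the smallest p, a chosen group of known liver and non-coding genes, and the 6 smallest p in each direction of each change of ratio. Not every gene this rule gives is printed. Alternatives were DESeq2 1.42.0, limma-voom (limma 3.58.1), other scalings and filters, no block, other sets of libraries and leaving out each liver, and 3 more were added after seeing the data.

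Library totals ran from 4533729 to 12742436 reads. A count of 0 was set to a floor of 3 reads, and intervals and floors cover counting error only. Symbols matched GRCm38.p6 for 24442 of 24539 genes, from which the coordinates come.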

Additional observations from a re-analysis of the deposited data

Results flagged for a closer look

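The RNC to mRNA ratio differed between the diets in the interaction of edgeR's quasi-likelihood test. The ratio was called higher in HFD+LYC livers in 327 genes and lower in 1300 against HFD, and higher in 270 and lower in 1120 against control. Both comparisons share the 3 HFD+LYC livers, whose RNC libraries hold fewer genes than the others, and the part of the libraries in the counts was not tested.

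Log2 changes against HFD for the 6 genes with the smallest p above 0 were 4.197 for Samd4b, 4.19 for Nfib, 3.56 for Kdm7a, 3.25 for Foxp1, 5.26 for Malat1 and 3.23 for Pabpc4. Below 0 they were -8.69 for Mrpl4, -4.91 for Rpl21, -5.48 for Mrps2, -8.61 for Mrps10, -7.43 for Hnrnph2 and -12.19 for Mrps33. The value for Mrps33, with 0 reads in the 3 HFD+LYC RNC libraries, depends on the prior count of the fit and is no estimate of size.

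The relation of the log ratio to transcript length was weaker in the HFD+LYC livers than in the other 6 by 0.258 (Spearman's rho, exact permutation test over livers). The number of genes with a read differed by -4592 between the HFD+LYC RNC libraries and the other 6.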

How the results depend on the processing

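The counts of called genes depended on the fit. In the HFD+LYC livers, 746 genes were called higher and 886 lower. Library sums gave 88 and 3079, all 18 libraries 1410 and 3967, and leaving out a liver 45 to 374 and 140 to 464. DESeq2 called 2137 lower and 929 higher, limma-voom 1088 and 499. The fit without the liver block, in which the RNC and mRNA libraries of a liver are unpaired, called 1488 lower and 691 higher, and the median gene moved from -0.78 to -0.31 on the log2 scale.

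Against HFD, 327 higher and 1300 lower became 837 and 2290 with DESeq2, 120 and 2119 with library sums, 67 and 168 with the 12 libraries of both diets, and 40 to 476 and 167 to 1872 without each liver in turn. The level limit of 10 CPM left 556 lower. Against control, 270 and 1120 became 743 and 2087, 87 and 1808, 28 and 104, and 41 to 399 and 213 to 1796, with 466 lower under the level limit. The causes of these moves were not tested.

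Of 103 called genes followed across the settings in RNC against mRNA, 62, 25 and 25 lost the call without liver 1, 2 and 3, 27 with library sums, 17 with limma-voom, 8 without the block, 3 with the level limit and 0 with DESeq2, its size factors, no filter or all 18 libraries. No called gene turned its direction. Uncalled genes did with library sums: Hspa5 (-0.73), Aurkaip1 (-0.32), Eef1a1 (-1.06), Tpt1 (-0.32), Malat1 (-0.24), Fasn (-0.43), Scd1 (-0.31), Dbp (-1.15), Fth1 (-0.37) and Hba-a1 (-0.73). Eef1a1 ran from -0.0211 without liver 2 to 0.711 without liver 3. The 12 genes named from each change of ratio kept their calls in every alternative run.

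The weaker rank correlation with length held its sign and an unadjusted p under 0.05 in all alternatives, at 0.207 to 0.288, and 0.210 to 0.288 without each liver (exact permutation p = 0.0357, unadjusted). The difference in genes detected ran from -4853 to -2351.8. The level relation's difference of 0.0131 was -0.0303 at 50 CPM, 0.0698 (exact permutation p = 0.0357) when level came from the HFD+LYC mRNA, and -0.00254 to 0.0363 without each liver (exact permutation p = 0.0357 for 0.0363, without liver 3). The non-coding difference of 0.0964 was -0.0329 at 1 CPM. Before scaling, 3 reads in RNC stand for the most CPM in liver 2, at 0.662. On the TMM scale they stand for the most in liver 1, whose factor was 0.333, against 0.967 and 0.655 in livers 2 and 3. Liver 1 also had the most genes at 0 reads, 1024 of the 8235, against 712 and 537.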
